A study of Mus musculus with 4 samples.

Results

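The ERK feedback genes described here are *Dusp4*, *Dusp5*, *Dusp6*, *Dusp9*, *Spry1*, *Spry2*, *Spry4*, *Spred1*, *Etv4* and *Etv5*, 10 of the 20832 genes that could be named on the arrays. They were found as every probe whose accession belongs to one of these symbols in mouse RefSeq, which gave 11 of 39429 probes, with a pair for *Etv4* and a single probe for each of the others. The group was chosen by what these genes do and from their signals in Met-high against Met-low cells on these same arrays, so their differences are given as a description, without a test. The cells were B16-F10, an established mouse malignant melanoma line, divided by cell sorting into Met-low and Met-high populations by the amount of Met, the HGF receptor, on their surface. Neither population was otherwise treated, and each was cultured for 3 days in medium with serum after sorting, before total RNA was taken. Each population was prepared 2 times independently, and the Cy3-labelled RNA of every preparation went onto its own 1-colour Agilent array, 4 arrays on a single slide, so that p-values measure the spread between preparations of 1 cell line. The arrays measure bulk RNA, in which fewer cells that express a gene cannot be told apart from less RNA in each cell. Met-low samples took positions 1 and 2 of the slide and Met-high samples 3 and 4, and the effect of position cannot be told apart from that of population.

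ERK is the last kinase of the cascade that runs from growth factor receptors such as Met and Kit through Ras, Raf and MEK. Active ERK raises the transcription of genes that hold it back. The dual-specificity MAP kinase phosphatases (MKPs, *Dusp* genes) remove phosphate from MAP kinases, Sprouty and Spred proteins act further up on the way from receptors to Raf, and the PEA3 transcription factors *Etv4* and *Etv5* are induced by the same pathway and bind DNA through an ETS domain. In melanoma, where the pathway is often overactive, transcripts of this group are widely used as a readout of ERK output.

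Each value below is the log2 of the background-corrected Cy3 intensity over the 75th percentile on that array, which was 942 and 1331 for Met-low and 858 and 1111 for Met-high samples. Between 50.01% and 53.6% of spots were well above background, the scanner software's call for a spot that can be told from background, and 0 were saturated. A gene entered the comparison across all genes where its brightest probe passed this call in both samples of a population, which 11958 genes did. All 7 melanocyte markers (*Mitf*, *Sox10*, *Tyr*, *Tyrp1*, *Dct*, *Pmel* and *Mlana*) were well above background on every array. Of the markers of other cells, 0 of 4 for keratinocytes were so, 1 of 4 for fibroblasts (*Col1a2*), 1 of 4 for leukocytes (*Cd3e*) and 1 of 3 for endothelium (*Kdr*). *Col1a2*, a collagen chain, was the higher in Met-low cells (log2 ratio -1.10 ± 0.17, adjusted p = 0.0311 by limma, Benjamini-Hochberg over all genes kept). The summed signal of the fibroblast list, in units of the 75th percentile, was 0.608 and 0.659 in Met-low samples, against 0.280 and 0.298 in Met-high samples. *Dcn* and *Lum* were well above background on no array. The sum over the endothelial list was 5.47 to 6.302 in Met-low and 6.72 to 8.43 in Met-high samples, and came almost wholly from the brighter of 2 *Kdr* probes. The other *Kdr* probe and *Cdh5* were well above background on no array, and *Pecam1* had a log2 ratio of 0.07. All samples were a cultured melanoma line, and the source of these marker signals was not tested. *Met* was at -0.26 and -0.89 in Met-low cells and at 1.03 and -0.43 in Met-high cells, so that Met-high replicate 2 lay between the Met-low samples.

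The promoters bear on how these genes answer ERK, since ETS factors and the serum response factor with its ETS partners are end points of the pathway. RefSeq promoter windows (GRCm38.p6) were at hand for 6 of the 10 genes. For *Dusp4*, *Dusp9*, *Spry4* and *Etv4* none was used here. In the 250 bases before the start of transcription, on both strands, the ETS sequence GGAAGT, the AP-1 sequence TGAGTCA, the CRE sequence TGACGTCA and the CArG box (the element of serum response factor) were searched. GGAAGT stood in the window of *Dusp5*, 193 bases before the start, and in 1 of the 2 windows of *Etv5*, 217 bases before it, and 19.7% of all 32851 windows of this length hold it. The window of *Dusp5* also held 2 CArG boxes, which begin 82 and 72 bases before the start and do not overlap each other or the ETS match, while 1.47% of all windows hold at least 1 and 0.0183% (6 windows) at least 2. TGAGTCA (4.46% of all windows) and TGACGTCA (1.55%) were found in none of the members' windows, and *Dusp6*, *Spry1*, *Spry2* and *Spred1* held 0 matches to any of the 4. Only exact matches were counted, and other forms of an ETS site were not searched. The windows of the gene with CArG boxes and of 2 genes with a higher signal in Met-high cells are shown 5′ to 3′ on the strand of the gene, with matches in capitals, where ACTTCC is GGAAGT read on the other strand. They lie at chr19:53528895-53529144 on the plus strand for *Dusp5*, at chr10:99262981-99263230 on the plus strand for *Dusp6*, and at chr16:22438369-22438618 on the minus strand for *Etv5*, the window with the ETS match.
Dusp5: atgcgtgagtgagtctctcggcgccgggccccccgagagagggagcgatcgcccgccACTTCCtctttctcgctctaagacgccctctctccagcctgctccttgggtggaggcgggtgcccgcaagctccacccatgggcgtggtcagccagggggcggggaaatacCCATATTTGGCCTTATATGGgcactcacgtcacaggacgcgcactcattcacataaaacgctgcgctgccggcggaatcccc
Dusp6: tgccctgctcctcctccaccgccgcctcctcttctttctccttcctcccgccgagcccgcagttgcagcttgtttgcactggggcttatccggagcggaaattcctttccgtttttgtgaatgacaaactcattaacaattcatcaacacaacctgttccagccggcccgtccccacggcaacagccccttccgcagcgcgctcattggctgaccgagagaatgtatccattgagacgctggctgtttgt
Etv5: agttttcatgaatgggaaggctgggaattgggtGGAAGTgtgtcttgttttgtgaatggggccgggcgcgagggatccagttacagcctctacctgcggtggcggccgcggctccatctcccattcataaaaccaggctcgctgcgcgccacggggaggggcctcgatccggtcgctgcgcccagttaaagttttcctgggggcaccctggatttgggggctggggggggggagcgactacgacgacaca

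Of the 9 members kept in the comparison across all genes, 2 had a calculated ratio of mean signals past 2-fold towards Met-high cells, the limit by which the study selected genes. In the direction of Met-low cells 0 of these 9 had one, and *Dusp5*, in background on every array, is not counted. Of the 2 towards Met-high cells, *Etv4* was measured in both populations. The ratio of *Dusp9* was taken against a background reading, and its approximate bound, 1.91-fold, does not reach the limit. Among all genes kept, 2.43% passed 2-fold towards Met-high and 5.29% towards Met-low cells. Both Met-high arrays lay above both Met-low arrays in 4 of the 9 genes (*Dusp6*, *Dusp9*, *Etv4* and *Etv5*), against 35.8% of all genes kept. For *Dusp9* this is not independent of the filter, which it passed through the Met-high arrays alone. The reverse held in 2 of the 9 (*Spry1* and *Spry2*), against 22.6% of all genes kept. With so few genes, the counts without overlap are close to the shares over all genes. The arrays of the populations overlapped for *Dusp4*, *Spry4* and *Spred1*, and *Dusp5* was well above background on no array. The filter on dim probes was passed by 9 of the 10 genes, *Dusp9* through the Met-high arrays alone. Nearest to the limit were *Etv4* above it and *Etv5* below it, at log2 ratios of 1.68 and 0.63.

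**Figure D1:**
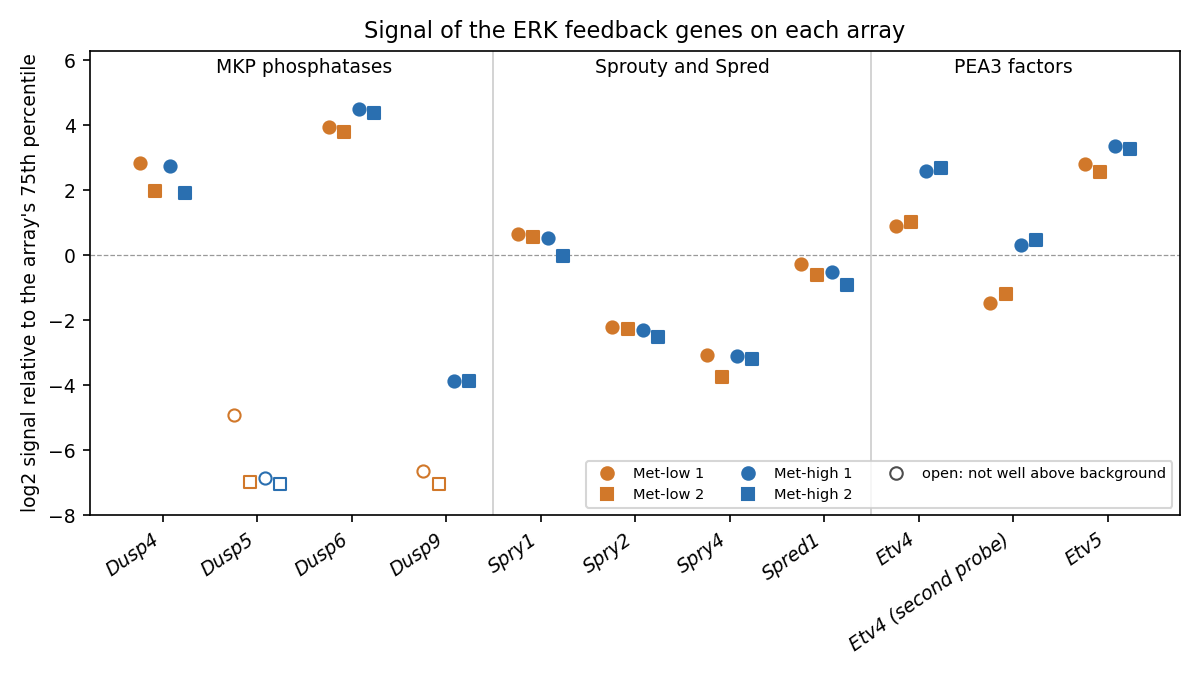
Log2 signal of each ERK feedback probe over the 75th percentile on that array (y axis) on the 2 Met-low (orange) and 2 Met-high (blue) arrays, with circles for replicate 1, squares for replicate 2 and open symbols where the probe was not well above background. The Met-high symbols stand above the Met-low symbols for *Dusp6*, *Dusp9*, *Etv5* and both probes of *Etv4*, and levels of different probes are not comparable.

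Among the phosphatases, *Dusp6* (NM_026268), a cytoplasmic phosphatase selective for ERK, had a log2 signal of 3.96 and 3.81 in Met-low and of 4.52 and 4.40 in Met-high cells. Both Met-high samples were thus higher, and the gap between the nearest samples was 0.44. The log2 ratio, Met-high minus Met-low, was 0.58 ± 0.16, where ± marks the standard error of the fit, or 1.49-fold, which is less than the 2-fold limit. A higher ratio was found in 1239 of the 11958 genes kept.

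*Dusp9* (NM_029352), a second cytoplasmic phosphatase of ERK, encoded on the X chromosome, gave an intensity of 9.41 and 10.2 in Met-low and of 58.5 and 76.6 in Met-high cells. It was not well above background in either Met-low sample and was so in both Met-high samples, where the lowest intensity of any probe well above background was 27.6 and 29.3. On the log2 scale the samples were at -6.65 and -7.02 in Met-low and at -3.88 and -3.86 in Met-high cells, so that the Met-high samples differed by only 0.02. Since the Met-low signal is a background reading, the change can be given only as an approximate bound, 1.91-fold higher in Met-high cells. This is the Met-high mean over the mean, on the Met-low arrays, of the lowest signal well above background. Some brighter probes failed the call, such as a *Ksr1* probe at 47.3 in Met-low replicate 1 and another at 50.2 in Met-low replicate 2. The bound may therefore be lower. The calculated log2 ratio, 2.97, rests on that background reading and was 0.82 after a normexp background correction with an offset of 50.

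*Dusp5* (NM_001085390), a nuclear phosphatase of ERK, gave an intensity of 31.3 and 10.6 in Met-low and of 7.49 and 8.42 in Met-high cells. The reading of Met-low replicate 1 stood apart from the other 3, below the lowest intensity well above background on that array (39.1). No ratio is given, since neither population had a level that could be told from background.

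**Figure D2:**
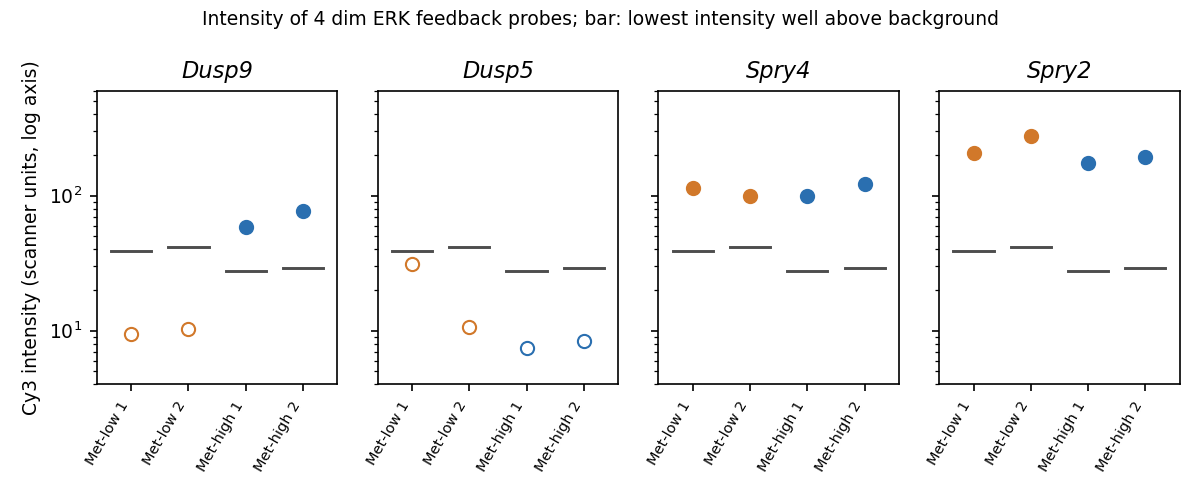
Background-corrected Cy3 intensity (log axis, scanner units) of 4 ERK feedback probes with low intensity on each array, open where not well above background, with a bar at the lowest intensity well above background on that array. *Dusp9* stands under the bar on both Met-low arrays and over it on both Met-high arrays, *Dusp5* under it on all 4, and *Spry4* and *Spry2* over it on all 4.

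*Dusp4* (NM_176933), a nuclear phosphatase of ERK and other MAP kinases, was at 2.83 and 1.99 in Met-low and at 2.76 and 1.93 in Met-high cells. Within both populations replicate 1 exceeded replicate 2 by 0.84, while the population means differed by -0.07 ± 0.40. The spread within the populations was thus larger than the difference between them, and the sign of the difference turned without Met-low replicate 1 (0.36) and without Met-high replicate 2 (0.35).

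None of the Sprouty and Spred genes, which restrain signalling between receptor and Raf, came near a 2-fold difference. *Spry1* (NM_011896) was at 0.65 and 0.58 in Met-low and at 0.55 and -0.02 in Met-high cells, giving a log2 ratio of -0.35 ± 0.23. The gap between the nearest samples of the populations was 0.03, and the samples within Met-high cells differed by 0.56. *Spry2* (NM_011897) was at -2.20 and -2.28 in Met-low and at -2.30 and -2.53 in Met-high cells, giving a log2 ratio of -0.17 ± 0.17. Here too the nearest samples were only 0.02 apart. *Spry4* (NM_011898) was at -3.06 and -3.74 in Met-low and at -3.11 and -3.18 in Met-high cells, giving a log2 ratio of 0.25 ± 0.26. Both Met-high values of *Spry4* lay between the Met-low values, and the ratio was -0.09 without Met-low replicate 2. *Spred1* (NM_033524), whose protein brings neurofibromin to the membrane, where that GTPase-activating protein turns Ras off, was at -0.27 and -0.60 in Met-low and at -0.50 and -0.92 in Met-high cells. Its log2 ratio was -0.28 ± 0.22, and Met-high replicate 1 lay between the Met-low samples.

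Both PEA3 factors had a higher signal in Met-high cells. *Etv4* (NM_008815) was at 0.91 and 1.03 in Met-low and at 2.61 and 2.70 in Met-high cells by its brightest probe. Samples of one population differed by at most 0.12 and the nearest samples of the populations by 1.57, so the difference was larger than the spread between replicates. The log2 ratio was 1.68 ± 0.16, or 3.20-fold, and 77 of the 11958 genes kept had a higher ratio. The second probe was at -1.47 and -1.18 in Met-low and at 0.33 and 0.46 in Met-high cells, and gave a log2 ratio of 1.72. All 4 arrays read both probes well above background. *Etv5* (NM_023794) was at 2.81 and 2.56 in Met-low and at 3.36 and 3.27 in Met-high cells, giving a log2 ratio of 0.63 ± 0.17, or 1.55-fold. Its nearest samples were 0.46 apart, and 1013 genes had a higher ratio.

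Between the Met-high samples the log2 signal of *Met* differed by 1.46, with replicate 1 the higher. Of the 9 feedback genes kept, *Dusp4* (0.84), *Spry1* (0.56), *Spred1* (0.43) and *Spry2* (0.23) differed most there, also with replicate 1 the higher. *Dusp6*, *Etv5* and *Spry4* differed by 0.12, 0.09 and 0.07 in the same direction, and *Etv4* and *Dusp9* by 0.09 and 0.02 with replicate 2 the higher. Between the Met-low samples replicate 1 was likewise the higher for *Met* (0.63), *Dusp4* (0.84), *Spry4* (0.68) and *Dusp9* (0.38, between background readings). Replicate 1 was also the higher there for *Spred1* (0.33), *Etv5* (0.26), *Dusp6* (0.15), *Spry2* (0.08) and *Spry1* (0.07). Of the 9 genes *Etv4* alone had replicate 2 the higher in Met-low cells. With 2 samples of each population this is a description only.

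**Figure D3:**
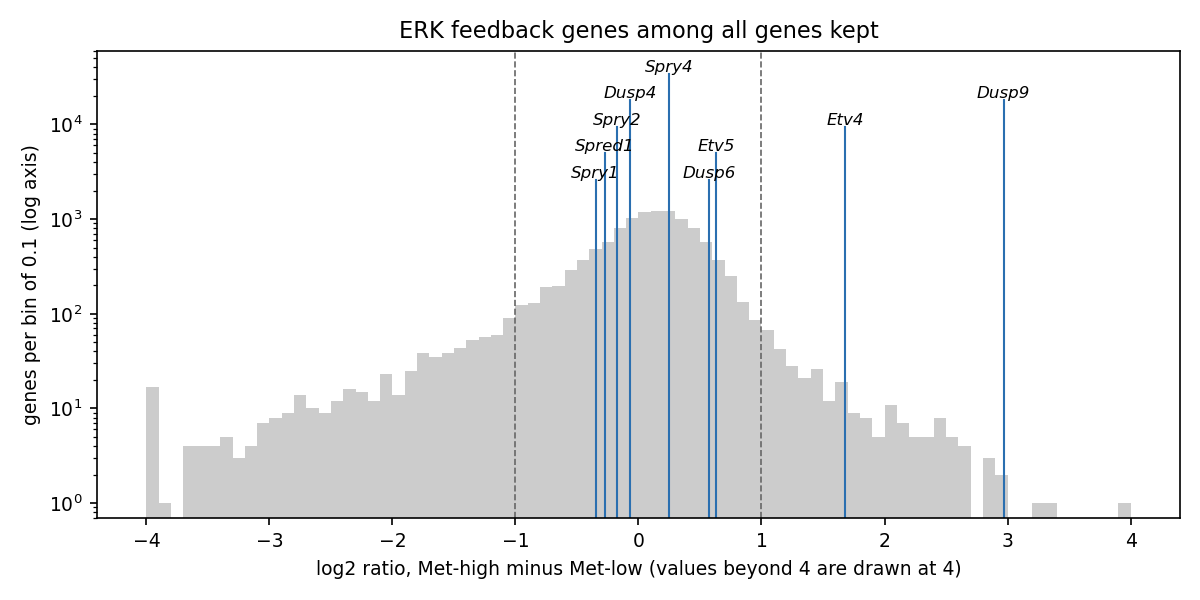
Log2 ratio, Met-high minus Met-low, of the 11958 genes kept (grey, counts per bin of 0.1 on a log axis) with the 9 ERK feedback genes that passed the filter as blue lines and 2-fold limits dashed (ratios beyond 4 are drawn at 4). *Etv4* stands beyond 2-fold, *Dusp9* is drawn at a calculated ratio against background (its approximate bound is 1.91-fold), and the other 7 lie between -0.35 and 0.63.

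The values did not all rest equally on the processing. Across 15 alternatives of background, scaling, filter, probes, arrays and pairing, the ratio of *Etv4* stayed between 1.53 and 1.74, that of *Etv5* between 0.48 and 0.76 and that of *Dusp6* between 0.40 and 0.65. Taking the 75th percentile over detected probes alone shifted the median over all genes kept from 0.10 to -0.05, and with it *Etv4* to 1.53, *Etv5* to 0.49, *Dusp6* to 0.43 and *Spry4* to 0.11. *Spry1*, *Spry2* and *Spred1* stayed below 0 in every alternative, the values nearest to 0 being -0.07, -0.02 and -0.06.

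**Figure D4:**
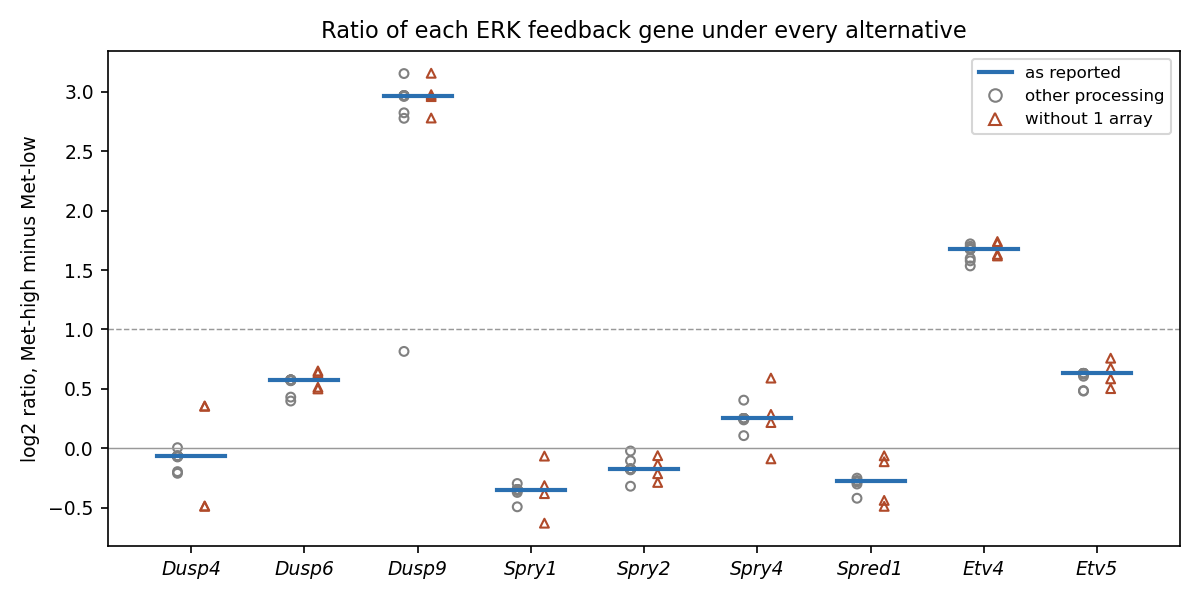
Log2 ratio, Met-high minus Met-low, of the 9 ERK feedback genes that passed the filter, as reported (blue bars), under other processing (grey circles) and without 1 array (red triangles), with the 2-fold limit dashed. *Etv4* stays between 1.53 and 1.74, *Dusp9* lies at 0.82 with the normexp correction, and *Dusp4* and *Spry4* cross 0.

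The remaining genes of the same families, from a list written with earlier results of these arrays known, could be tested across all genes. Of 10 such genes, 7 passed the filter, while *Dusp10*, *Spry3* and *Spred3* were well above background on no array. Limma called 0 of the 7 at an adjusted p under 0.05 in either direction, against 1.95% of all genes kept towards Met-high and 3.82% towards Met-low cells. At an unadjusted p under 0.05 from limma there were 0 of the 7 towards Met-high and 2 towards Met-low cells (*Dusp1* and *Dusp8*). Of the 11958 genes kept, 1715 towards Met-high and 1421 towards Met-low cells were under this threshold. *Dusp1*, an inducible nuclear phosphatase of several MAP kinases, was at -0.29 and -0.34 in Met-low and at -0.87 and -0.79 in Met-high cells, giving a log2 ratio of -0.51 ± 0.15 (adjusted p = 0.121). *Dusp8*, which acts on JNK and p38, had a log2 ratio of -0.77 ± 0.21 (adjusted p = 0.0969). Its relative *Dusp16* had a log2 ratio of -0.42 ± 0.20 (adjusted p = 0.253). *Dusp7*, the third cytoplasmic phosphatase of ERK, had a log2 ratio of 0.23 ± 0.17 (adjusted p = 0.418). The nuclear phosphatase *Dusp2* differed by -0.05 ± 0.16 (adjusted p = 0.877), *Spred2* by -0.01 ± 0.22 (adjusted p = 0.987) and the third PEA3 factor, *Etv1*, by 0.12 ± 0.20 (adjusted p = 0.728). The sign turned for *Spred2* with normexp (0.03), with quantile normalization (0.13), without Met-high replicate 2 (0.12) and without Met-low replicate 1 (0.21). It turned for *Etv1* with the percentile of detected probes (-0.02) and without Met-low replicate 1 (-0.08). The median log2 ratio of the 7 genes was -0.05, beside 0.10 over all genes kept.

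The phosphatases were also set out by the textbook classes of MKPs, a grouping made after the values were seen and not tested. Leaning means the direction of the difference between means. The 3 cytoplasmic phosphatases of ERK (*Dusp6*, *Dusp7* and *Dusp9*) all leaned towards Met-high cells. The log2 ratios were 0.58 for *Dusp6* and 0.23 for *Dusp7*, and *Dusp9* had the approximate bound of 1.91-fold. *Dusp6* and *Dusp9* are among the genes chosen from these same signals. The log2 ratio of *Dusp7* was 0.09 with the percentile of detected probes. Over all genes kept the median was 0.10, and -0.05 with that percentile. Of the 4 inducible nuclear phosphatases, *Dusp1*, *Dusp2* and *Dusp4* leaned towards Met-low cells, with log2 ratios from -0.51 to -0.05, and *Dusp5* could not be told from background. The direction of *Dusp4* turned with the normexp correction (0.0051) and without Met-low replicate 1 or Met-high replicate 2, and that of *Dusp2* turned to 0.02 without Met-low replicate 1. Of the 3 phosphatases of JNK and p38, *Dusp8* and *Dusp16* leaned the same way and *Dusp10* was not above background.

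Other transcripts that ERK is known to raise were compared in the same fit. Of 11 such genes, 10 passed the filter. The mean was higher in Met-high cells for 8 of them and lower for 2, with a median log2 ratio of 0.18, beside 0.10 over all genes kept. With the percentile of detected probes it was higher for 5 and lower for 5, with a median of 0.04, beside -0.05 over all genes kept. Limma called 1 of them. *Egr1*, an immediate early transcription factor, was at -3.42 and -3.52 in Met-low and at -1.71 and -2.27 in Met-high cells, so that it rose towards Met-high by a log2 ratio of 1.48 ± 0.23 (adjusted p = 0.0311). Its adjusted p lay between 0.00484 and 0.150 over 13 alternatives, and was above the threshold of 0.05 with no filter on dim probes (0.150) and with the percentile of detected probes (0.0555). *Epha4*, an ephrin receptor, was at -2.61 and -3.16 in Met-low and at -3.78 and -4.54 in Met-high cells, giving a log2 ratio of -1.27 ± 0.33 (adjusted p = 0.0901). Its adjusted p was 0.0135 when Met-high replicate 1 was left out and 0.0399 when Met-low replicate 2 was. *Ier3*, a further immediate early gene, had a log2 ratio of 0.39 ± 0.18 (adjusted p = 0.247). *Fosl1* was well above background in Met-low replicate 2 alone and was not tested.

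The genes of the cascade itself showed small differences. All 11 genes from Ras to ERK passed the filter, with a median log2 ratio of 0.17, beside 0.10 over all genes kept. Limma called 0 of them. At an unadjusted p under 0.05 there was 1 in each direction (*Map2k2* and *Braf*), beside 1715 towards Met-high and 1421 towards Met-low of the 11958 genes kept. The median of the cascade genes was 0.02 with the percentile of detected probes, beside -0.05 over all genes kept. The largest differences were those of *Hras* (log2 ratio 0.58 ± 0.26, adjusted p = 0.232), *Braf* (-0.52 ± 0.16, adjusted p = 0.125) and *Map2k2*, which encodes a MEK (0.40 ± 0.15, adjusted p = 0.182). Upstream of Ras, 14 of 18 receptors, ligands, adaptors and Ras regulators passed the filter, with a median log2 ratio of -0.05. Of these, limma called *Kit* alone, the receptor of stem cell factor, which fell towards Met-high by a log2 ratio of -2.19 ± 0.21 (adjusted p = 0.00989, and 0.0817 without a filter on dim probes). The 3 probes of *Fgfr1* disagreed, with log2 ratios of 0.25 for the brightest and of -1.28 and -2.94 for the others. The probe at -2.94 was not well above background on either Met-high array, so its ratio rests on a background reading. The ratio of *Met* was 0.87 ± 0.51 (adjusted p = 0.333), and it was 0.14 (adjusted p = 0.820) without Met-high replicate 1 and 1.61 (adjusted p = 0.0196) without Met-high replicate 2. *Erbb2*, a receptor of the EGF receptor family, had a log2 ratio of 0.60 ± 0.16 (adjusted p = 0.0968).

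**Figure D5:**
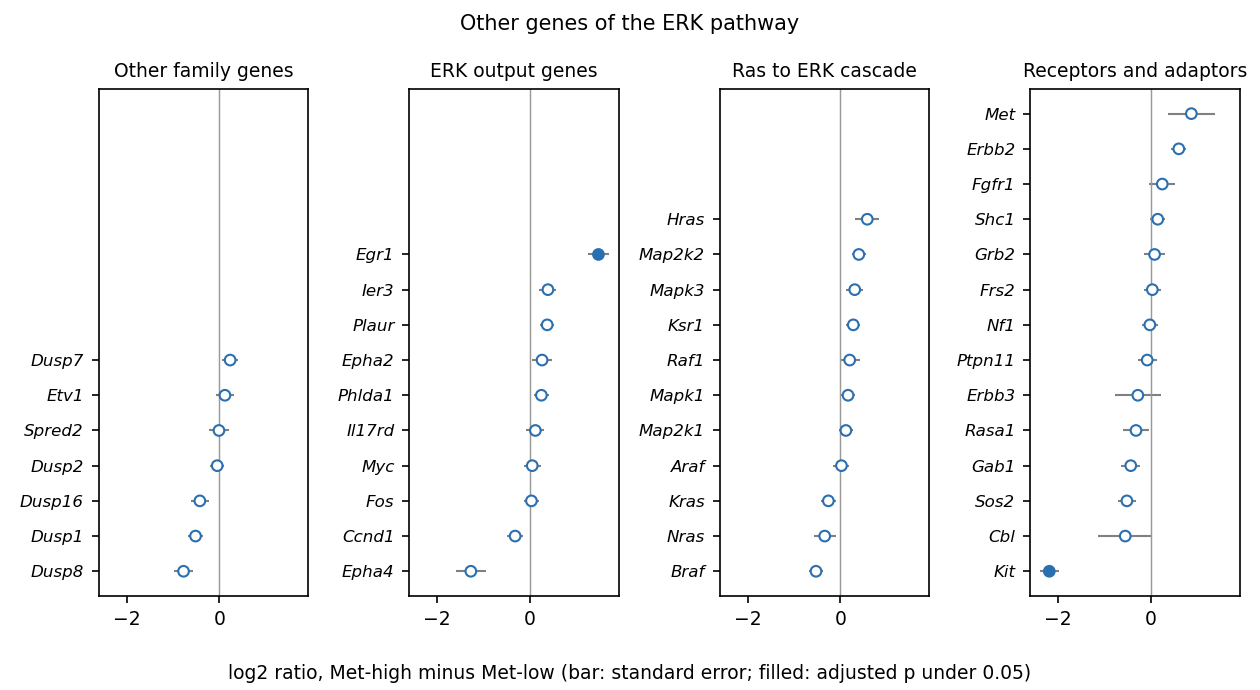
Log2 ratio, Met-high minus Met-low, with its standard error (bars) for the genes of 4 further lists of the ERK pathway that passed the filter, filled where the adjusted p from limma was under 0.05. *Egr1* at 1.48 and *Kit* at -2.19 are the filled points.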

How the data were processed

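RNA of 2 Met-low and 2 Met-high samples was read on 4 Agilent mouse arrays of 1 colour. The authors deposited the scanner output of each array, whose gProcessedSignal column holds the Cy3 intensity, linear and corrected for background by the scanner software, and a table of processed log2 values, scaled by the 75th percentile per array and centred per probe. Median spot and median background intensities were deposited too and served the normexp alternative. Feature Extraction is given as 11.0.1.1 in the headers of the files and as 10.7.3.1 in the submitters' processing notes. Between 93.3% and 99.8% of probes in the authors' table lay within 0.01 of the intensities scaled and centred the same way.

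From the scanner output, intensities were floored at 0.01 (0 spots were lower), divided by the 75th percentile of the array and taken to log2. Between 207 and 232 outlier spots per array were left out, none of them of the 10 genes, and spots of a probe were averaged. Probes were named by accession through the RefSeq gene table of GRCm38.p6, which matched 27427 of 39429 probes (20832 genes), and the brightest probe stood for a gene. The 11958 genes that passed the background call in both samples of a population entered limma 3.58.1 (lmFit and eBayes, under R 4.3.3), with two-sided p-values and Benjamini-Hochberg adjustment over these genes. An exact permutation of 2 arrays against 2 cannot reach 0.05 and was not used. The fit was tested on simulated data. The number of arrays limits the precision. The members, gene lists and rules for named genes were chosen with earlier results of these data known. Named were all 10 members, every other family gene above background, and in each further list the genes called and the 3 with the largest ratio. Promoters were read from a RefSeq table of GRCm38.p6 and searched with Python 3.11.15. Alternatives were normexp (offset 50), quantile normalization, the percentile of detected probes, other filters on dim probes, the floor after scaling, outlier spots kept, other probe rules, the authors' values, each array left out, the replicate number as a block and a mean-variance trend. The MKP classes and the motifs were chosen after the values were seen.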

Additional observations from a re-analysis of the deposited data

How the results depend on the processing

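Counts of the ERK feedback genes past 2-fold or without overlap kept within 1.5 times in most of 15 alternatives. Past 2-fold towards Met-high there was 1 gene with the normexp correction (*Etv4*, as *Dusp9* was at 0.82) and 1 over genes detected on all 4 arrays (where *Dusp9* is not tested). Towards Met-low there was 1 without a filter on dim probes (*Dusp5*, which lay in background). Without overlap and higher in Met-low cells there was 1 gene with normexp and 1 with quantile normalization, and with each array left out between 2 and 5, the highest without Met-low replicate 2 and 4 without Met-high replicate 1, where 32.8% and 32.2% of all genes kept had no overlap in that direction, since 2 samples against 1 overlap less often than 2 against 2 (22.6%). Genes called over all genes towards Met-high and Met-low were 233 and 457, 0 and 7 without a filter (which tests 20832 genes, with 1197 and 1463 at an unadjusted p under 0.05), 143 towards Met-high with the percentile of detected probes, 392 towards Met-high with a mean-variance trend, and between 155 and 264 towards Met-high and 437 and 604 towards Met-low with each array left out, 155 being the count without Met-low replicate 1. Of the genes past 2-fold, 68.5% were higher in Met-low cells, and 80.2% with the percentile of detected probes.

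Same-numbered samples of the populations deviated together (correlation over 11947 genes of 0.54), but 2 pairs do not settle a pairing and the labels name none. Replicate 1 was the higher in both populations in 7 of the 9 ERK feedback genes kept and in 33.9% of those 11947 genes, the ones with a value on all 4 arrays. With the replicate number as a block limma called 1976 and 1580 genes, and in the lists of the pathway 2 other family genes and 1 ERK output gene (*Epha4*) towards Met-low, 1 cascade gene in each direction (*Hras* and *Braf*), and 2 upstream genes in each direction (*Met* and *Erbb2*, *Kit* and *Sos2*). Among these upstream genes, *Erbb2* had an adjusted p of 0.0284 and *Met* of 0.04998 from limma with the block. The family genes were *Dusp1* (adjusted p = 0.0327 from limma) and *Dusp8* (0.0241). The call of *Egr1* was lost, leaving 0 ERK output genes towards Met-high, without a filter and with the percentile of detected probes, and the count towards Met-low was between 0 and 1 with each array left out (*Epha4* without Met-high replicate 1 or Met-low replicate 2). Upstream, 0 genes were called towards Met-low without a filter, 2 with every probe by itself (*Kit* and a second probe of *Fgfr1*), and between 1 and 2 with each array left out (*Cbl* joining without Met-high replicate 1), and between 0 and 1 towards Met-high (*Met*, without Met-high replicate 2). The cause of these changes was not tested. Signals near background, those of *Dusp9* and *Dusp5*, limit what can be said of these genes.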
